A study of Mus musculus with 4 samples.

Results

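Molecular chaperones of the cytosol and of mitochondria were compared between T-cells sorted as IL-10 producers and T-cells sorted as non-producers. The gene set held 44 listed chaperones and cochaperones, of which 41 had at least 1 probe set of their own among the 18193 genes named on the array. They were taken by name in 6 classes, which were HSP70 with its exchange factors, HSP90 with its cochaperones, J proteins, the cytosolic chaperonin CCT, mitochondrial chaperones, and small heat shock proteins with heat shock factors. Each gene was read by its brightest probe set, chosen by its average over the 4 arrays from those annotated to that gene alone, and its other probe sets served as a check.

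All samples came from C57BL/6 mice 6 to 12 weeks old that had received an intraperitoneal injection of D665, a superagonistic antibody to CD28. Lymph node CD4+CD25+ T-cells, a population rich in regulatory T-cells, were taken 3 days later and kept overnight with antibodies to CD3, at 2 µg/ml, and to CD28, at 5 µg/ml, together with 200 U/ml of recombinant human IL-2. They were then stained for IL-10 and sorted into IL-10+ and IL-10- cells, so injection, culture and stimulation were shared by both groups. Each group was measured on 2 Affymetrix mouse genome arrays, replicates 1 and 2 for IL-10+ and replicates 3 and 4 for IL-10-. Nothing in the labels says that the 2 arrays of a group came from separate mice or sorts, and the p-values therefore measure only a spread that may be technical. In bulk samples of this kind, fewer cells of a type and less RNA per cell cannot be told apart.

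Chaperones bind unfolded or newly made proteins and let them fold, refold or move on to degradation. HSP70 proteins take up short unfolded stretches in cycles of ATP hydrolysis that J proteins start and exchange factors end, HSP90 acts later on kinases, steroid receptors and other clients, and the CCT ring encloses actin, tubulin and other newly made proteins. Mitochondria carry relatives of bacterial chaperones for imported proteins, and heat shock factors bind heat shock elements in the promoters of many of these genes. Activated T-cells grow, divide and secrete cytokines, all of which draws on newly folded protein.

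Heat shock elements are shown for the members whose promoters held one, since the heat shock response is the regulation these genes are best known for. The RefSeq promoter windows of GRCm38.p6, 300 bases from 250 before to 50 after each annotated start, were searched on both strands for the element as 3 alternating units, GAA, TTC and GAA, with 2 unspecified bases between neighbours. On the opposite strand the same element reads TTC, GAA and TTC. The element was found for 5 of the 36 members with a window (13.9%) and for 179 of all 27025 genes (0.662%). Of these 5 members, Hspd1 and Hspe1 share the same matched bases. A match describes the letters only and is not a measured binding site. Hspd1 and Hspe1, which encode the 2 parts of the mitochondrial chaperonin, lie head to head with annotated starts 216 bases apart. The 215 bases between them are given on the plus strand of chr1:55087933-55088147, reading from the Hspd1 side to the Hspe1 side, with 2 overlapping matches in capitals.
Hspd1 to Hspe1: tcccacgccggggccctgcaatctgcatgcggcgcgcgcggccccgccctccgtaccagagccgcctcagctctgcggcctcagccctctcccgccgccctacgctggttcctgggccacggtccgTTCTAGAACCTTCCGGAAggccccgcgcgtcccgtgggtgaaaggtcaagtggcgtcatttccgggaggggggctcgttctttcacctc
The capitals ended 72 bases before the Hspe1 start and 127 bases from the Hspd1 start. A further annotated Hspd1 start lies beyond the Hspe1 start, at 55088243, so that this stretch falls within the span of that transcript. The other 3 members held the elements below, all in capitals because every base belongs to a match.
Chordc1, chr9:18292263-18292285, plus strand, from 4 bases before the start: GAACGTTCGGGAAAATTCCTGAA
Dnajb6, chr5:29735852-29735864, plus strand, from 46 or 127 bases before its 2 annotated starts: GAATCTTCCGGAA
Hsph1, chr5:149636288-149636300, minus strand, from 15 or 36 bases after its 2 annotated starts: TTCTGGAAAGTTC
The Chordc1 run holds 3 overlapping matches. None of the 7 CCT genes with a window held this exact pattern, and neither did Hspa1a, Hspa1b, Dnajb1 or Hspb1, which also had windows. Since 0.662% of all genes held it, its absence sets no class apart. Other forms of the element and bases outside the windows were not searched. Hspa8, Hsp90aa1, Hsp90ab1, Dnajc2, Dnajc5, Cct4, Hspa9 and Hsf1 had no window.

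Before the chaperones were compared, the labels were checked on Il10 itself. Its probe set read 12.02 and 12.00 in the IL-10+ samples and 10.41 and 10.37 in the IL-10- samples on the log2 scale, a difference of 1.62 ± 0.06 (SE; limma, adjusted p = 7.78e-06). The 9 genes of the CD4 and regulatory T-cell list were bright in all samples, with means from 10.3 to 13.1. Of these 9, Ctla4 (0.87), Cd4 (0.51) and Cd3g (0.41) were higher in IL-10+ samples, and Foxp3 (-0.72) and Ikzf2 (-0.55), which mark regulatory T-cells, were lower. Of 10 measured markers of B cells and plasma cells, 9 were lower in IL-10+ samples and 0 higher. The mean level of that list was 6.66 and 6.62 in IL-10+ and 8.54 and 8.53 in IL-10- samples, and its Pax5 was not called. Its widest difference was that of Igha, which read 7.18 and 7.24 in IL-10+ against 12.58 and 12.74 in IL-10- samples (-5.45). Mzb1 (-2.75), Jchain (-2.75) and Cd74 (-2.59) followed. Of 5 markers of NK cells 4 were lower, at mean levels of 5.99 and 5.94 against 6.57 and 6.56. Of 7 myeloid markers 2 were higher and 1 was lower, and of 2 CD8 markers 1 was lower. For 4 bacterial transcripts spiked into the RNA as controls, the 5′ probe sets differed by a median of 1.11 (range 0.62 to 1.96), higher in IL-10+, and the 3′ probe sets by 0.09 (range -0.23 to 0.21). The 5′ probe set of Gapdh differed by 0.88 and its 3′ probe set by 0.02, and those of b-actin by 1.12 and 0.40. Among the other 3′ control probe sets of mouse transcripts, the transferrin receptor differed by 1.15, pyruvate carboxylase by -0.29 and 18S RNA by -2.18. The part of these marker genes, and of the end of the transcript that a probe set reads, in the chaperone differences below was not tested.

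Across the 41 measured chaperones, 24 were lower in IL-10+ samples and 0 were higher at an adjusted p under 0.05 (limma), while 17 were not called. Their median difference, IL-10+ minus IL-10-, was -0.27 on the log2 scale, and 35 of them lay below 0. At an unadjusted p under 0.05, 29 were lower and 1, Dnajb4, was higher. The count of 24 is 58.5% of the members. Among the brightest probe sets of all 18193 genes 22.9% were called lower and 8.37% higher. Most chaperones were bright, and bright genes as a whole differed in the same direction. Of the 3530 genes with a mean of 9 or more, 45.5% were called lower and 14.7% higher, with a median difference of -0.19. Of the 30 members at that level, 18 were lower (60%) with a median of -0.30, and of the 11 dimmer members 6 were lower (54.5%). At a mean from 6 to 7 it was 1 of 2 members, and from 7 to 8 it was 2 of 4. From 8 to 9 it was 3 of 4, and from 5 to 6 it was 0 of 1. Of all genes, 9.18% were lower at a mean from 6 to 7, 36.3% from 7 to 8 and 45.4% from 8 to 9. The members' share thus stood above the share of bright genes by less than it stood above the share of all genes. The log base of the deposited values is not stated, the paper labels its differences as natural logs of the fold, and folds and percentages are given here for log2. On that reading 0 of the 41 brightest probe sets were lower by the study's rule of 2-fold with an adjusted p under 0.001, as were 0.792% of all genes, and Fkbp4 came nearest at 1.92-fold. Read as natural logs, 4 members passed that rule, as did 3.32% of all genes. They were Fkbp4 (-1.36 in log2 units), Hspe1 (-1.23), Cct3 (-1.15) and Hspd1 (-1.07). The paper also gives a maximal fold for its selected genes. Igha, the widest of the marker genes, stayed within that maximum on the log2 reading, at 43.6-fold. On the natural log reading it would differ by -7.86 in log2 units, which is beyond that maximum.

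**Figure D1:**
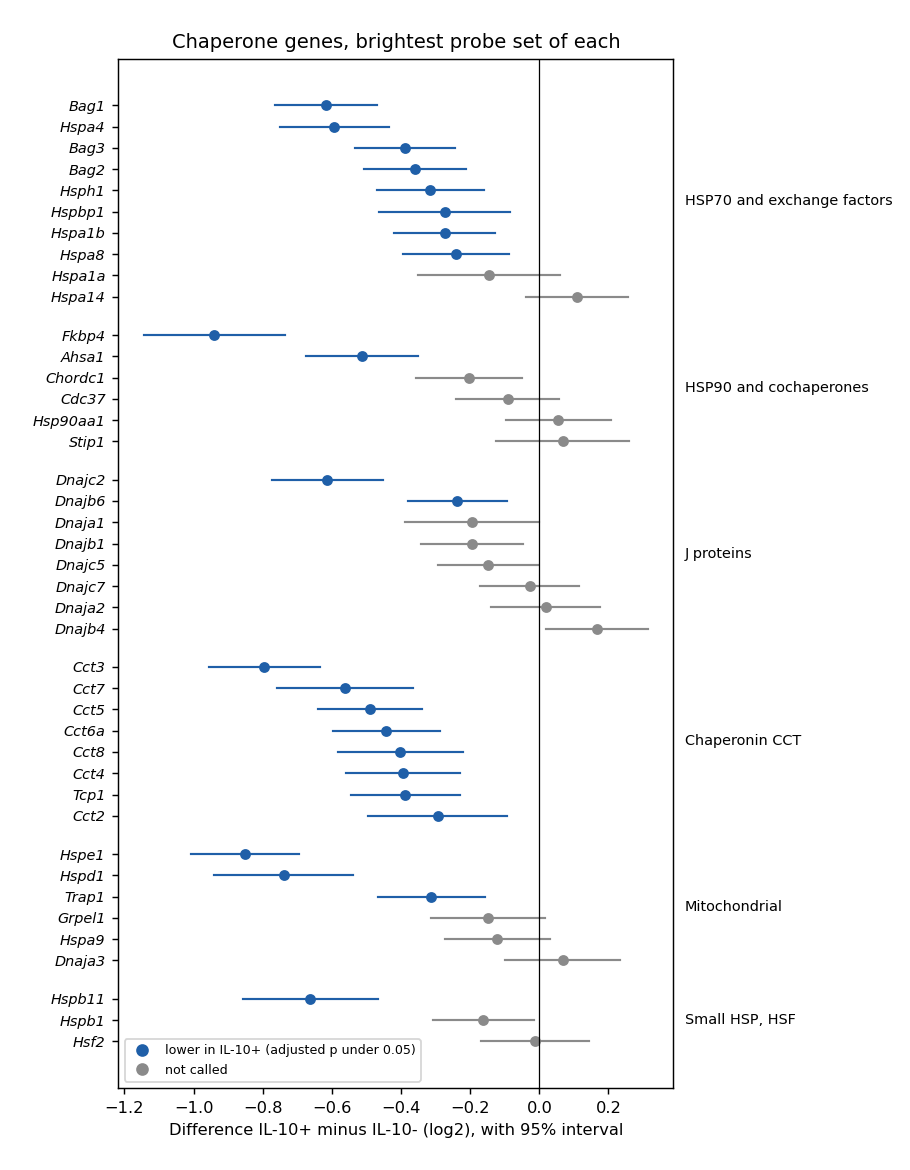
Difference in level, IL-10+ minus IL-10- on the log2 scale, of the brightest probe set of the 41 measured chaperones by class, with the 95% interval of the limma fit (2 arrays per group). Blue points are called lower at an adjusted p under 0.05, as are 24 genes, and grey points are not called. All 8 CCT subunits lie left of 0, also after quantile normalization and median centring of the arrays, while Cdc37 and Dnajc7 change sign under the former and Dnaja2, Dnaja3, Hsp90aa1 and Stip1 under the latter.

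The CCT chaperonin was the class in which every member was called. CCT is a double ring of 8 different subunits that all cells need for actin and tubulin, and all 8 genes were lower in IL-10+ samples, by a median of 0.42 on the log2 scale. The median level over the 8 genes was 11.47 and 11.51 in the IL-10+ samples and 12.06 and 12.07 in the IL-10- samples. The groups overlapped for none of the 8 genes. Of all 41 members, 33 had both IL-10+ values below both IL-10- values, and 3 had them above. The share of all genes without overlap was not counted, here or for the genes below, so the lack of overlap is description only. Of the 549 genes with a mean from 11 to 12, where most CCT genes lay, 47.0% were called lower.

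Cct3, the gamma subunit, read 11.31 and 11.26 in the IL-10+ samples against 12.02 and 12.13 in the IL-10- samples. The difference of -0.80 ± 0.07 (SE; limma, adjusted p = 0.000151) was the widest of the class among brightest probe sets, and the IL-10+ level fell by 42.4%. With its 7 probe sets averaged the difference was -0.31, and those of Cct5, Cct7, Cct6a and Tcp1 were then wider. Cct7, the eta subunit, read 11.11 and 11.14 against 11.58 and 11.80, a difference of -0.56 ± 0.08 (SE; limma, adjusted p = 0.00186). Both genes had an IL-10+ pair within 0.05 of each other and an IL-10- pair well above it. Tcp1, the alpha subunit after which the ring is also called TRiC, read 11.81 and 11.83 against 12.15 and 12.26, a difference of -0.39 ± 0.07 (SE; limma, adjusted p = 0.00373). The other subunits but one were lower by amounts between those of Cct7 and Tcp1. They were Cct5, at -0.49, Cct6a, at -0.44, Cct8, at -0.40, and Cct4, at -0.39. Cct2, the beta subunit, had the narrowest difference at -0.29 (limma, adjusted p = 0.0373). The call was lost on leaving out IL-10+ replicate 1 (adjusted p = 0.105), IL-10+ replicate 2 (0.161) or IL-10- replicate 4 (0.1), and after quantile normalization (0.117).

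The other probe sets of the CCT genes mostly pointed the same way. Over all 25 probe sets of the class, 20 were lower, 2 were higher and 3 were not called. Among the 17 that were not the brightest of their gene, 12 were lower and 2 higher. For Cct2 all 3 probe sets were lower, and for Cct6a and Cct7 both were. The 2 exceptions were a Cct3 probe set that read 9.51 and 9.49 against 9.07 and 8.90, a difference of 0.52 (limma, adjusted p = 0.00164), and a dim Cct4 probe set, at 0.35 (limma, adjusted p = 0.00525). Cct3 had 4 probe sets that were lower beside it, and Cct4 had 6. With its probe sets averaged, Cct8 was no longer called (-0.16, adjusted p = 0.158).

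**Figure D2:**
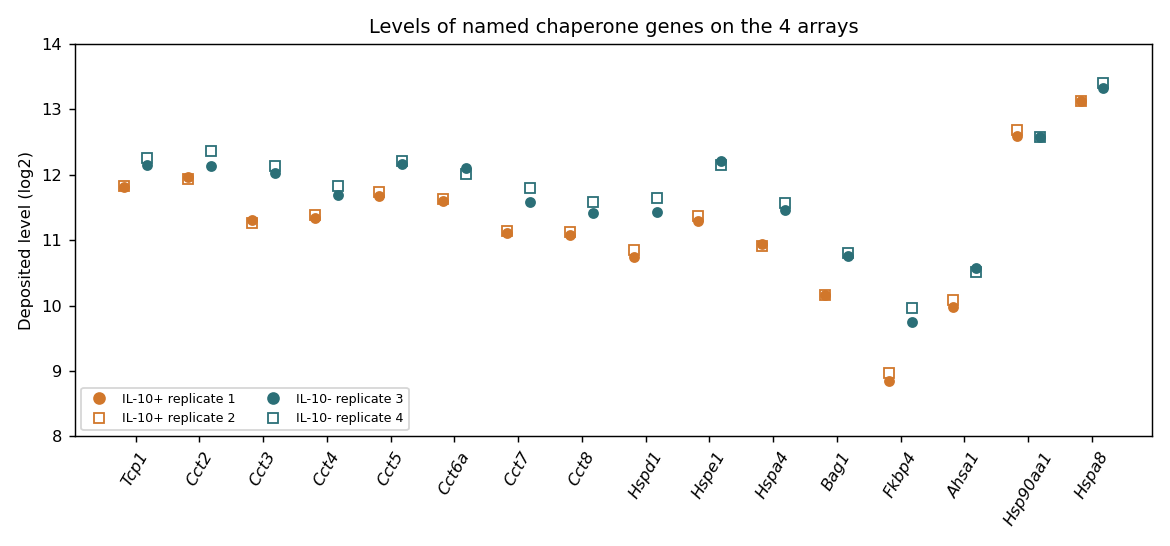
Deposited levels (log2) of 16 chaperone genes on the 4 arrays, read by their brightest probe sets. Orange marks stand for IL-10+ replicates 1 and 2 and teal marks for IL-10- replicates 3 and 4. For the CCT genes and for Hspd1, Hspe1, Hspa4, Bag1, Fkbp4 and Ahsa1 both IL-10+ marks lie below both IL-10- marks, whereas the marks of Hsp90aa1 lie close together.

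In the mitochondrial class, 3 of 6 members were lower (50%) and 3 were not called, with a median of -0.23. This was near the 45.5% called lower among bright genes, whose median was -0.19, and 4 of the 6 were bright. The called genes were the mitochondrial chaperonin and the HSP90 relative of mitochondria. Hspd1, which encodes HSP60, the folding chamber, read 10.75 and 10.84 in the IL-10+ samples against 11.43 and 11.64 in the IL-10- samples. The difference was -0.74 ± 0.09 (SE; limma, adjusted p = 0.000575). Hspe1, which encodes HSP10, the lid of that chamber, read 11.29 and 11.37 against 12.21 and 12.15, a difference of -0.85 ± 0.07 (SE; limma, adjusted p = 0.000101). The partners that share the intergenic stretch shown above were thus both lower in IL-10+ samples, where Hspd1 fell by 40.1% and Hspe1 fell by 44.6%, and the groups overlapped for neither. The other probe set of Hspe1 differed by -0.81 (limma, adjusted p = 0.000385), and Hspd1 had 1 probe set. Trap1, the mitochondrial HSP90, was lower by 0.31 on its brightest probe set and by 0.48 on the other. Without IL-10+ replicate 2 the brightest probe set of Trap1 was not called (-0.27, adjusted p = 0.0982).

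Hspa9, the mitochondrial HSP70 that draws proteins through the import channel, was read by 5 probe sets with different results. The brightest read 9.51 and 9.58 against 9.65 and 9.69, a difference of -0.12 that was not called (limma, adjusted p = 0.224). The next one read 8.96 and 8.98 against 9.79 and 10.03, a difference of -0.94 (limma, adjusted p = 0.000212). A dim one was higher by 0.74 (limma, adjusted p = 0.000154). These values give no single direction for Hspa9. Dnaja3, a mitochondrial J protein that works with Hspa9, differed by 0.07 on its brightest probe set, which was not called, and by 0.63 on the next one, which was higher (limma, adjusted p = 0.000689). Grpel1, the nucleotide exchange factor of Hspa9, differed by -0.15 (limma, adjusted p = 0.165).

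Of the HSP70 class, 8 of 10 members were lower and 0 were higher, with a median of -0.29, and 4 were lower without IL-10+ replicate 1 or 2. The 8 lower members made up 80% of the class, beside 45.5% of bright genes and 22.9% of all genes, and 5 of the 10 were bright. Hspa8, the constitutive HSP70 of the cytosol, read 13.13 and 13.13 against 13.33 and 13.41. The difference of -0.24 ± 0.07 (SE; limma, adjusted p = 0.0272) was small and depended on the settings. It was -0.08 after quantile normalization (adjusted p = 0.397), and the call was lost on leaving out IL-10+ replicate 1 (adjusted p = 0.149), IL-10+ replicate 2 (0.144) or IL-10- replicate 4 (0.0665). The other 3 probe sets of Hspa8 also differed in that direction, with 1 of them called. That was a dim one, with a mean of 6.77, and the brighter ones were not called (limma, adjusted p = 0.134 and 0.0752). Without probe sets of the suffixes x or s, which leaves out the brightest, Hspa8 was not called (-0.18, adjusted p = 0.0788).

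The stress-inducible HSP70 genes were dim. Hspa1a read 5.66 and 5.78 against 5.76 and 5.97, values that overlapped and were not called (limma, adjusted p = 0.279). Without IL-10- replicate 3 it was lower, at -0.25 (adjusted p = 0.0287). Hspa1b read 6.52 and 6.57 against 6.81 and 6.83, a difference of -0.27 ± 0.06 (SE; limma, adjusted p = 0.0135). Leaving out IL-10+ replicate 1 (adjusted p = 0.117) or 2 (0.0699) ended this call, and its other 2 probe sets were not called, nor was the mean of the 3 (-0.15, adjusted p = 0.0793). Hspa1a and Hspa1b are near-identical copies, so probes may read both. Hspa14, which acts at the ribosome, differed by 0.11 and was not called (limma, adjusted p = 0.253), and it was higher after quantile normalization, by 0.23 (adjusted p = 0.0263).

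The exchange factors, which release nucleotide and client from HSP70, made up most of the calls in that class. Hspa4, of the HSP110 type, read 10.94 and 10.91 against 11.46 and 11.57, a difference of -0.59 ± 0.07 (SE; limma, adjusted p = 0.000521). Bag1, a BAG domain protein that couples HSP70 to the proteasome, read 10.17 and 10.16 against 10.75 and 10.81, a difference of -0.62 ± 0.06 (SE; limma, adjusted p = 0.000316). For both genes the IL-10+ pair lay more than 0.5 below the IL-10- pair. Bag3, which serves autophagy, was lower by 0.39 (limma, adjusted p = 0.00246) and Bag2 by 0.36 (limma, adjusted p = 0.00402). Hsph1, the other HSP110 protein, differed by -0.31 (limma, adjusted p = 0.0091) and Hspbp1 by -0.27 (limma, adjusted p = 0.0385). Leaving out IL-10+ replicate 1 (adjusted p = 0.0529) or 2 (0.0709) ended the call of Hsph1. Hspbp1 was not called without either of these (0.126 and 0.163), without IL-10- replicate 3 (0.102) or after quantile normalization (0.0643). Bag1, Bag2, Bag3 and Hspbp1 each had 1 probe set. Hspa4 had a second probe set that was lower, by 0.82, and another that was higher, by 0.84 (limma, adjusted p = 0.000329), and with all 4 averaged it was not called (-0.16, adjusted p = 0.0518). The dimmer probe set of Hsph1 was higher by 0.38 (limma, adjusted p = 0.00416), and with both averaged the difference was 0.031 (adjusted p = 0.712).

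In the HSP90 class, 2 of the 6 measured members were lower (33.3%) and 0 were higher on their brightest probe sets. All 6 were bright, and 45.5% of bright genes were called lower. Fkbp4, the immunophilin FKBP52 that joins HSP90 to steroid receptors, read 8.85 and 8.97 against 9.75 and 9.96. Its difference of -0.94 ± 0.09 (SE; limma, adjusted p = 0.00021) was the widest of the 41 brightest probe sets, and the level fell by 47.9%. With its 3 probe sets averaged the difference was -0.38, which Hspe1 (-0.83), among others, then exceeded. Ahsa1, which speeds up the ATP hydrolysis of HSP90, read 9.98 and 10.09 against 10.57 and 10.52, a difference of -0.51 ± 0.07 (SE; limma, adjusted p = 0.00117). The groups overlapped for neither gene. The 2 other probe sets of Fkbp4 were dim and not called, and a dim probe set of Ahsa1 was higher by 0.29 (limma, adjusted p = 0.01). With its 2 probe sets averaged Ahsa1 was no longer called (-0.11, adjusted p = 0.157).

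Hsp90aa1, the inducible HSP90 itself, gave one answer on its brightest probe set and another on the next. The brightest read 12.60 and 12.68 against 12.58 and 12.58, a difference of 0.05 with a 95% interval from -0.10 to 0.21 (limma, adjusted p = 0.603). The next one, also bright, read 12.45 and 12.54 against 11.69 and 11.71, a difference of 0.79 ± 0.07 (SE; limma, adjusted p = 0.000132), with both IL-10+ values above both IL-10- values. Another read 11.50 and 11.68 against 10.50 and 11.30, and its difference of 0.69 was not called (limma, adjusted p = 0.0518). The IL-10- values of that probe set lay far apart. The 2 dim ones differed by 0.04 and -0.02. With the mean over its probe sets, Hsp90aa1 was higher by 0.31 (adjusted p = 0.00487).

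The remaining HSP90 cochaperones differed little. Stip1, which hands clients from HSP70 to HSP90, differed by 0.07 (limma, adjusted p = 0.613), and Cdc37, which loads kinases, by -0.09 (limma, adjusted p = 0.347). Chordc1, whose promoter window held the overlapping letter matches above, differed by -0.20 and fell just short of the threshold (limma, adjusted p = 0.0518). It was called lower in 4 of the alternative settings, for example after median centring of the arrays (-0.28, adjusted p = 0.0124). Hsp90ab1, the constitutive HSP90, had no probe set of its own here, and neither had Ptges3, the cochaperone p23, whose 2 probe sets are shared with another annotated gene.

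The J proteins, which carry clients to HSP70 and start its cycle, showed the smallest share of calls. Among the 8, of which 7 were bright, 2 were lower (25%, against 45.5% of bright genes) and 0 were higher. The count was 1 without IL-10+ replicate 1 or 2, 4 without IL-10- replicate 3, and 5 after median centring. Dnajc2, a ribosome-bound J protein, read 9.79 and 9.75 against 10.32 and 10.44, a difference of -0.61 ± 0.07 (SE; limma, adjusted p = 0.000499). Its next probe set read 8.90 and 9.09 against 8.28 and 8.50, a difference of 0.60 in the other direction (limma, adjusted p = 0.0027), and with its 4 probe sets averaged the difference was -0.024 (adjusted p = 0.807). Dnajb6, which holds back aggregation and whose promoter window held a letter match to the element, differed by -0.24 (limma, adjusted p = 0.0231). The call was lost on leaving out IL-10+ replicate 1 (adjusted p = 0.127) or 2 (0.154), or after quantile normalization (0.276), and its other probe sets included 1 lower by 0.64 and 1 higher by 0.77. The mean over them differed by 0.0086 (adjusted p = 0.927).

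Dnaja1, a partner of Hspa8, read 11.14 and 11.18 against 11.25 and 11.46, a difference of -0.20 that was not called (limma, adjusted p = 0.127). Both of its other probe sets were lower, by 0.41 and 0.69, and without IL-10- replicate 3 the brightest one was lower too (-0.30, adjusted p = 0.00749). Dnajb1, or HSP40, read 10.44 and 10.39 against 10.59 and 10.63, a difference of -0.19 (limma, adjusted p = 0.0555). Its dimmer probe set read 10.25 and 10.29 against 9.79 and 9.67, a difference of 0.54 the other way (limma, adjusted p = 0.000906). Both probe sets of Dnajb1 separated the groups, in opposite directions. Of the others, Dnajb4 differed by 0.17, Dnaja2 by 0.02, Dnajc7 by -0.03 and Dnajc5 by -0.15, and none of these was called. Of their other probe sets, 1 of Dnajb4 was higher by 0.30, and Dnaja2 had 1 that was higher by 0.40 and 1 that was lower by 0.28. Dnajc5, the cysteine string protein of secretory vesicles, had 4 further probe sets, of which 3 were higher and 1 lower. The widest of them differed by 1.06 (limma, adjusted p = 6.01e-05).

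Small heat shock proteins and heat shock factors were dim. Hspb1, known as HSP25 in mice, read 6.96 and 6.93 against 7.09 and 7.13, a difference of -0.16 that was not called (limma, adjusted p = 0.095). Hspb11, which carries a heat shock name but is known as a protein of intraflagellar transport, read 8.09 and 8.16 against 8.68 and 8.89, a difference of -0.66 ± 0.08 (SE; limma, adjusted p = 0.00085). It was not called with the mean over its 2 probe sets (-0.25, adjusted p = 0.0718). Hsf2, a heat shock factor, differed by -0.01 (limma, adjusted p = 0.929). Hsf1, the main factor of the heat shock response, had no probe set of its own here.

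Over all 106 probe sets of the 41 members, 47 were lower, 16 were higher and 43 were not called, beside 16.2% lower and 13.6% higher among all 45037 probe sets tested. All 16 that were higher were probe sets other than the brightest of their gene, which numbered 65 and held 23 lower ones. Where the mean level was 9 or more, 31 of 51 probe sets were lower and 5 higher, and among the 55 dimmer ones 16 were lower and 11 higher. Shares over all probe sets at these levels were not counted, so these counts are description only. Among the brightest probe sets of all genes at 9 or more, 45.5% were lower and 14.7% higher. Of the 29 members with several probe sets, 10 had calls in both directions (34.5%). These were Hspa4, Hsph1, Ahsa1, Dnaja2, Dnajb6, Dnajc2, Dnajc5, Cct3, Cct4 and Hspa9. The share over all 9010 genes with several probe sets was 12.0%, in 1078 genes. Those genes were not matched to the members by level or by number of probe sets. Only genes with a mean under 7 were seldom called. On their brightest probe sets, 1.43% were lower and 1.69% higher from 5 to 6, and 9.18% and 6.09% from 6 to 7. From 8 to 9 these shares were 45.4% and 12.9%. The direction given above for these members is that of the brightest probe set only, and the end of the transcript read by each probe set is not known here.

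**Figure D3:**
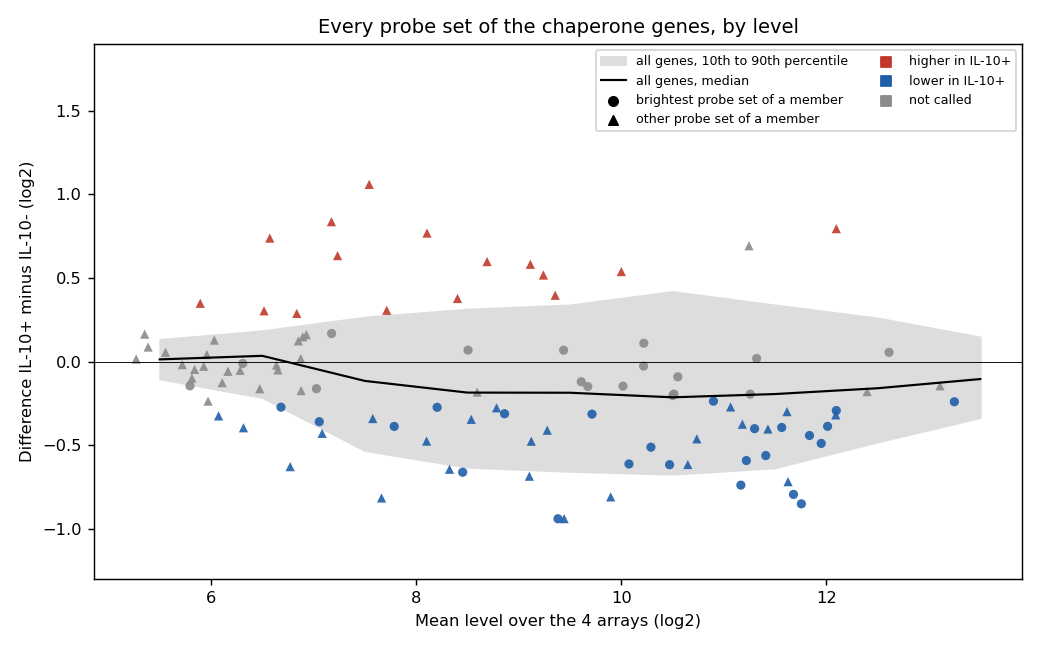
Difference, IL-10+ minus IL-10- (log2), of every probe set of the measured chaperones against its mean level over the 4 arrays (log2). Circles are the brightest probe set of a gene and triangles the others, coloured by call, and the line and grey band give the median and the 10th to 90th percentile of the brightest probe sets of all genes. The median of all genes lies below 0 at levels above 7, and the red triangles, 16 in number, spread from dim to bright levels.

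Genes that work with these chaperones were counted in 6 further lists with 94 measured genes, of which 39 were lower, 9 were higher and 46 were not called, with a median of -0.14. The lower genes made up 41.5% of these lists, beside the 22.9% of all genes and 45.5% of bright genes given above, and 41 of the 94 were bright by the same mark. Other partners of HSP90 held 10 lower and 2 higher genes of 15, with a median of -0.46. The lowest were Fkbp5, the immunophilin FKBP51 (-0.85), Nudc, a cochaperone of dynein clients (-0.84), and Rpap3, a scaffold of the R2TP complex (-0.78). Sugt1, at 0.28, and Cdc37l1, at 0.21, were higher. Other mitochondrial folding, import and protease genes held 12 lower and 2 higher of 22. Timm50, at -0.84, Pam16, at -0.76, and Timm44, at -0.59, belong to the import motor and channel that feed Hspa9, and they were lower. The proteases Yme1l1, at 0.54, and Clpx, at 0.51, were higher.

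Prefoldin hands actin and tubulin to CCT, and the list of prefoldin and nascent chain factors held 6 lower and 2 higher genes of 15. Pdrg1 (-0.87), Uxt (-0.51) and Uri1 (-0.42), which belong to the prefoldin-like complex, were lower, while Pfdn2 (0.38) and the CCT cofactor Pdcl3 (0.30) were higher. The prefoldin subunits themselves gave no single direction. Beside Pfdn2, which was higher, Pfdn6 was lower (-0.41), and Pfdn1, Pfdn4, Pfdn5 and Vbp1 were not called. Other HSP70 partners held 4 lower and 1 higher of 12, with Bag6 (-0.49), Bag4 (-0.45) and St13 (-0.33) lower and Hspa4l (0.42), a further HSP110 protein, higher. Other J proteins held 6 lower and 1 higher of 18, with Dnajc8 (-0.51), Dnajc17 (-0.48) and Dnajb2 (-0.45) lower and Dnaja4 (0.30) higher. Other stress genes held 1 lower and 1 higher of 12, Hspb6 at -0.25 and the heme oxygenase Hmox1 at 0.43, with a median of 0.09. In the last list 10 of 12 genes had a mean under 9.

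**Figure D4:**
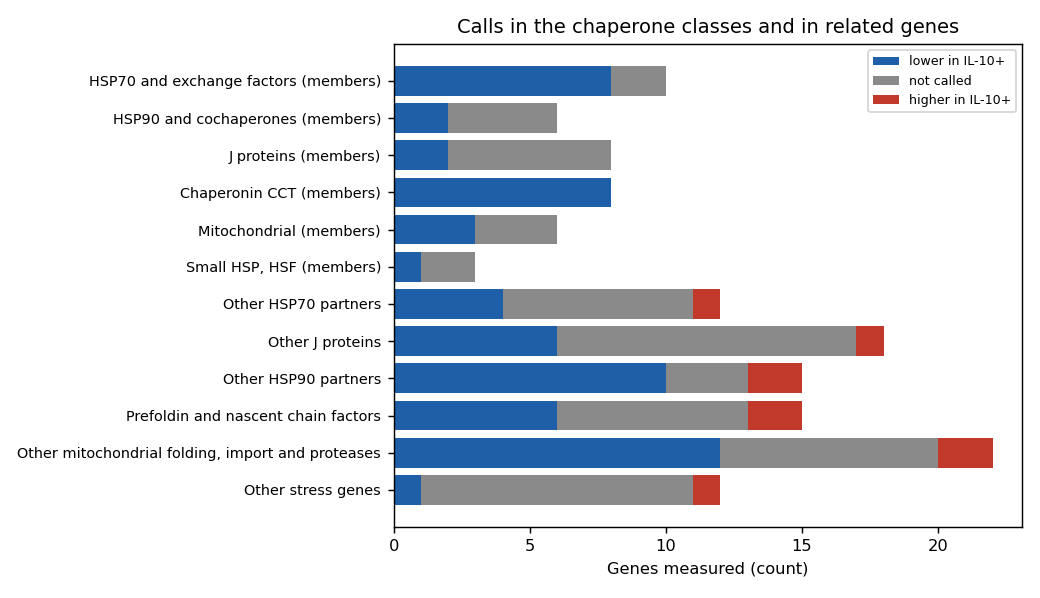
Number of measured genes called lower (blue), called higher (red) or not called (grey) in IL-10+ samples at an adjusted p under 0.05 (limma), for the 6 chaperone classes and the 6 lists of related genes. CCT is the only bar that is blue throughout, with 8 of 8 genes, and under quantile normalization 7 of the 8 were called.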

How the data were processed

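RNA of 2 IL-10+ and 2 IL-10- samples was hybridized to 1 array each, and the authors applied variance stabilization from Bioconductor to the signals. The deposited values, 1 for each probe set on each array, were taken as log2. The base is not stated, and if the values were natural logs every difference would be larger on the log2 scale (Fkbp4 -1.36 in place of -0.94) with the same calls by adjusted p but not by the 2-fold rule. How probes were summarised is not given in the sources used here.

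After 64 control probe sets were set aside, 45037 were fitted with limma 3.58.1 (R 4.3.3; lmFit, eBayes, two-sided, Benjamini-Hochberg over all of them, 2 residual and 5.44 prior degrees of freedom). The step was tested on simulated data. Gene names came from the platform annotation, by which 34945 tested probe sets name 1 gene. The 932 that name several were not used. Plots used matplotlib 3.10.9 under Python 3.11.15.

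The members and lists were chosen with earlier results of these data known. All members were counted. Array values were given for members past the threshold with a difference of at least 0.5 and for the founding members of each class. Up to 3 genes per direction were named from each related list, with the remaining prefoldin subunits in addition. An exact permutation test of 2 against 2 arrays cannot go below p = 0.333. Alternatives covered normalization, filtering, the prior, the choice of probe sets, the threshold and leaving out each array. On arrays, their number limits the precision. Protein sequences were not analysed here.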

Additional observations from a re-analysis of the deposited data

How the results depend on the processing

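The count of 24 lower chaperones was 21 after quantile normalization, 30 after median centring, 26 without the probe sets below the median, 24 with a trended or a robust prior, 18 with the probe sets of a gene averaged, 22 without the suffixes x and s, 26 when only the brightest probe sets were fitted, and 19 when an adjusted p under 0.01 was asked for. It was 0 at 2-fold with an adjusted p under 0.001, or 4 with the values read as natural logs, a reading of that rule added after seeing the data. It ranged from 17 to 26 when each array was left out, with 17 without IL-10+ replicate 2 and 18 without IL-10+ replicate 1. The count of 0 higher was 1 after quantile normalization (Hspa14), 4 with the mean over probe sets (Hsp90aa1, Dnajb1, Dnajc5 and Dnaja3) and 1 without the suffixes (Dnaja2), and it stayed 0 in the other settings and whichever array was left out. By class, the HSP70 count of 8 was 4 without IL-10+ replicate 1 or 2 and 5 with probe sets averaged or at an adjusted p under 0.01. The J protein count of 2 was 5 after median centring, 4 without IL-10- replicate 3, and 1 after quantile normalization, without the suffixes, with probe sets averaged, at an adjusted p under 0.01 or without IL-10+ replicate 1 or 2. The small heat shock and factor count of 1 was 2 after quantile normalization or median centring and 0 with probe sets averaged. At 2-fold with an adjusted p under 0.001 every class count was 0, or on the natural log reading 1 for HSP90, 1 for CCT, 2 for mitochondrial genes and 0 for the others. Differences that turned and were called before or after were, with the mean over probe sets, Hsph1 (0.031), Dnajb1 (0.17, adjusted p = 0.0353), Dnajb6 (0.0086) and Dnajc5 (0.26, adjusted p = 0.00664), and, without the suffixes, Dnajc2 (0.017). Of the differences called neither before nor after, Cdc37, Dnaja2 and Hsf2 changed sign with probe sets averaged, Cdc37 and Dnajc7 after quantile normalization, Dnaja2, Dnaja3, Hsp90aa1 and Stip1 after median centring, and Dnaja2, Hsf2 and Stip1 on leaving out an array. With probe sets averaged, Hspa1b, Hspa4, Ahsa1, Dnajc2, Cct8 and Hspb11 lost their calls without turning. The cause was not tested, except that the mean includes dimmer probe sets of opposite sign. All 8 CCT genes were lower in each setting at an adjusted p under 0.05 except quantile normalization, the mean over probe sets and the fits without IL-10+ replicate 1, IL-10+ replicate 2 or IL-10- replicate 4, with 7 in each. No paired analysis was possible because the groups share no replicate numbers.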

Other observations

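The probe sets of Hspa4l and the genes of the R2TP complex are described here in full, a choice made after their values were seen. Hspa4l, which encodes an HSP110 protein like Hspa4 and Hsph1, was higher in IL-10+ samples on all 5 of its probe sets, by 0.42, 0.58, 0.51, 0.48 and 1.03 in order of brightness. The brightest read 9.76 and 9.74 in the IL-10+ samples against 9.25 and 9.41 in the IL-10- samples (limma, adjusted p = 0.00386), while Hspa4 and Hsph1 were lower on their brightest probe sets and higher on another one.

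The R2TP complex works with HSP90 to assemble large machines such as RNA polymerase II and snoRNPs. It is built from Ruvbl1, Ruvbl2, Pih1d1 and Rpap3, and all 4 genes were lower in IL-10+ samples. Their means lay between 8 and 11. Of all genes with a mean from 8 to 9, 45.4% were called lower, beside 45.3% from 9 to 10 and 47.4% from 10 to 11. Ruvbl1 read 8.46 and 8.54 against 9.09 and 9.21, a difference of -0.65 (limma, adjusted p = 0.000454). Ruvbl2 read 9.88 and 9.87 against 10.52 and 10.58, a difference of -0.68 (limma, adjusted p = 0.000213). Pih1d1 differed by -0.58 on its brightest probe set and by -0.46 on the next one, with 2 dim ones not called, and Rpap3 differed by -0.78 (limma, adjusted p = 0.000174). The groups overlapped for none of these brightest probe sets.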
